A study of Schmidtea mediterranea with 12 samples.

Results

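Transcripts of 3 lysosomal genes were followed through laser-captured tissue of the planarian flatworm Schmidtea mediterranea. They are dd_Smed_v6_48_0_1, which matches human cathepsin L (CTSL, dd_48), dd_Smed_v6_1067_0_1, the planarian atp6ap2 (dd_1067), and dd_Smed_v6_10002_0_1, which matches human GNPTG (dd_10002). They were taken by identifier, 3 of the 28069 transcripts in the count table, and all 3 were among the 13136 transcripts that passed the filter on low counts (at least 1 CPM, a count scaled to library size, in at least 4 of the 12 libraries). The names rest on sequence matches made by the study. CTSL and atp6ap2 reached the minimum in all 12 libraries, whereas GNPTG reached it in 8, the intestinal ones, and so entered the test through the tissue in which it was higher.

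Medial intestine, lateral intestine and non-intestine were each captured from the same 4 animals, giving 4 libraries per tissue. All were uninjured adults of the asexual clonal line CIW4, between 6 and 9 mm long and starved for 7 days, with no treatment and no difference in genotype between the tissues. Regions were cut from 20 μm sections of the animal's anterior, and sections of 1 animal were pooled into each library, so a replicate number stands for an animal. Each library began with 5 ng of total RNA and read the 3′ ends of polyadenylated transcripts.

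Lysosomes are acidic compartments in which proteins, lipids and sugars taken up by endocytosis, or delivered from within the cell, are broken down. Cathepsin L is a cysteine protease that cuts proteins in the lysosomal lumen, and the V-ATPase, a rotary proton pump that ATP6AP2 accompanies as an accessory protein, keeps that lumen acidic. In vertebrates, GNPTG is a subunit of the phosphotransferase that begins the mannose 6-phosphate tag by which soluble hydrolases are sorted to the lysosome. The planarian gut lacks an anus, and its phagocytes engulf food particles and digest them inside the cell.

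Library totals lay between 20227187 and 33296270 counts. TMM factors, which rescale library sizes so that most transcripts centre near no change, lay between 0.765 and 0.985 in the 8 intestinal libraries, and were 1.21 or more in the 4 non-intestine libraries. The tissue labels were checked against markers. The 3 phagocyte markers ctsla, apob-1 and apob-2 had sums from 7152 to 10011 CPM in the medial libraries and from 6610 to 8170 CPM in the lateral libraries, against 110 to 159 CPM in the non-intestine libraries. For the 5 neural markers the sums were 6.08 to 15.0 CPM (medial) and 4.79 to 16.4 CPM (lateral), against 58.6 to 77.6 CPM outside the intestine, with RIMS1 at 0 counts in all medial libraries. PCSK2 made up most of the sum outside (49.6 to 66.5 CPM). PCSK2 was called lower in both regions and RIMS1 in medial intestine, whereas CHRNB2, CACNA1E and GAD1 were called in neither, GAD1 with log2 fold changes of 0.55 in medial and 0.37 in lateral intestine. For the 6 ciliated cell markers the sums were 1.14 to 15.5 CPM (medial) and 6.86 to 13.3 CPM (lateral), against 77.6 to 115 CPM outside. TEKT2 and RSPH3 were called lower in both regions, FOXJ1 and IFT74 in medial intestine only, and IFT172 and IFT140 in neither. Stem cell markers, 2 in number, had sums of 110 to 164 CPM (medial) and 141 to 225 CPM (lateral), against 262 to 327 CPM outside. These markers, PIWIL1 and PCNA, were both called lower in medial intestine and neither was called in lateral intestine. The part of this cell make-up in the differences given next was not tested, and in captured tissue fewer cells of a type cannot be told apart from less RNA per cell.

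CTSL was higher in both intestinal regions than outside them, and it was among the most abundant transcripts of the intestine. Its TMM-normalized level was 15312, 10810, 14786 and 11299 CPM in the medial intestine of animals 1 to 4, and 16585, 12247, 13007 and 11757 CPM in their lateral intestine. It was 291, 450, 423 and 431 CPM in their non-intestine. Every intestinal library stood far above every non-intestine library, and the medial and lateral values overlapped. Such a separation of all 8 intestinal libraries above all 4 others was found for 14.9% of the transcripts tested.

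The level of CTSL averaged 13052 ± 2325 CPM in medial intestine and 399 ± 72.8 CPM in non-intestine (SD, n = 4 each), a 32.7-fold rise with a log2 fold change of 5.03 (SE 0.22, 95% interval 4.55 to 5.52). In edgeR's quasi-likelihood test the Benjamini-Hochberg adjusted p was 1.82e-09. In lateral intestine it averaged 13399 ± 2185 CPM (SD, n = 4), 33.6-fold above non-intestine (log2 fold change 5.07, SE 0.22, interval 4.59 to 5.56), with an adjusted p of 1.95e-09 in the same edgeR test. The rise was present in 4 of 4 animals in each region. Calls of a higher level, at an adjusted p under 0.01 and a fold change above 2, were made for 12.8% of the 13136 transcripts in medial intestine and for 11.7% in lateral intestine. Both contrasts used the same 4 non-intestine libraries. CTSL itself is among the transcripts that the study selected as intestine-enriched in these libraries, so its direction is no independent evidence.

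Animal 1 gave the widest ratios for CTSL. Its CPM in medial intestine was 52.7 times that in its own non-intestine, against 24.0, 34.9 and 26.2 times in animals 2, 3 and 4. In lateral intestine the ratio was 57.0 in animal 1, and 27.2, 30.7 and 27.3 in the others. Animal 1 had the lowest non-intestine level of CTSL and the highest level in each intestinal region. By share of the library, CTSL took 0.996% to 1.22% of all counts in the medial libraries and 1.06% to 1.32% in the lateral libraries, against 0.0433% to 0.0631% in the non-intestine libraries.

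**Figure D1:**
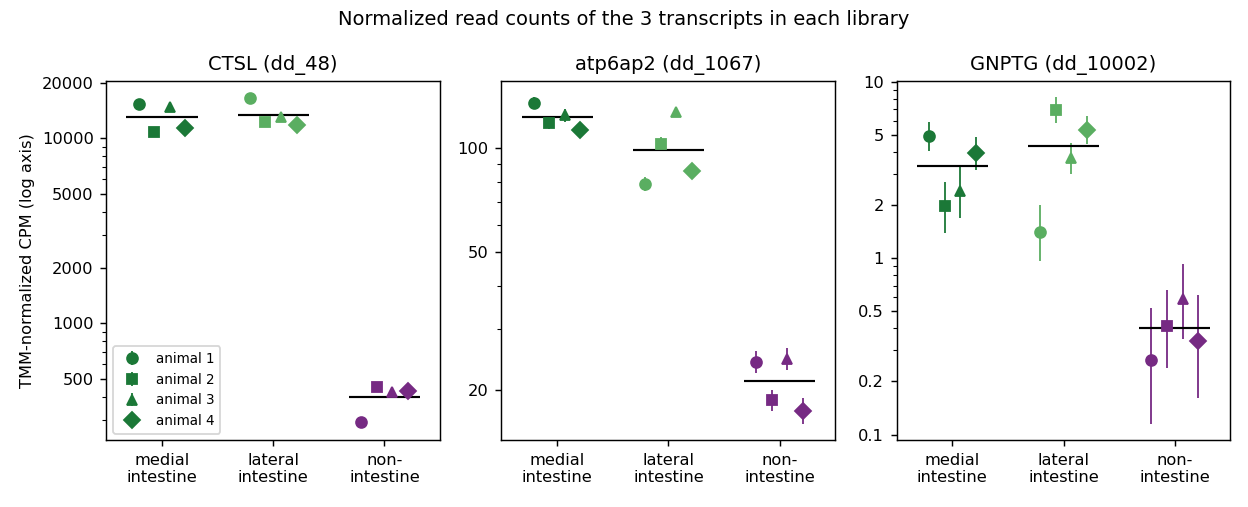
Normalized read counts of CTSL, atp6ap2 and GNPTG (TMM-normalized CPM, log axis) in the 3 tissues, from left to right medial, lateral and non-intestine; each point is a library, its shape the animal, error bars are 95% Poisson intervals of the count and black lines are means of 4 libraries. The intestinal libraries lie above the non-intestine libraries for all 3 transcripts, with CTSL near 13052 CPM in medial intestine against 399 CPM in non-intestine.

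The accessory protein transcript atp6ap2 was also higher in the intestine, by a smaller ratio. Its level was 136, 118, 124 and 113 CPM in the medial intestine of animals 1 to 4, and 78.7, 103, 127 and 85.8 CPM in their lateral intestine. It was 24.1, 18.7, 24.6 and 17.4 CPM in their non-intestine. The lowest intestinal library, the lateral one of animal 1, remained above the highest non-intestine library, and the medial values overlapped with the lateral ones. Such a separation from non-intestine was found for 14.9% of the transcripts tested.

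In medial intestine atp6ap2 averaged 123 ± 9.71 CPM, against 21.2 ± 3.69 CPM in non-intestine (SD, n = 4 each). This 5.78-fold rise had a log2 fold change of 2.53 (SE 0.19, interval 2.12 to 2.95) and an adjusted p of 2.49e-07 in edgeR's quasi-likelihood test. In lateral intestine the mean was 98.7 ± 21.7 CPM (SD, n = 4), 4.65-fold above non-intestine (log2 fold change 2.22, SE 0.19, interval 1.81 to 2.63), with an adjusted p of 8.91e-07 in the same edgeR test. All 4 animals showed the rise in each region. The study stained atp6ap2 among the transcripts with which it checked its sequencing of these libraries, so its direction is no independent evidence. Within animals, the ratio to non-intestine lay between 5.05 and 6.48 for medial intestine and between 3.26 and 5.51 for lateral intestine.

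GNPTG was the scarcest of the 3, and its intestinal levels varied most between libraries. It had 116, 37, 38 and 89 counts in the medial intestine of animals 1 to 4, and 31, 148, 100 and 127 counts in their lateral intestine. It had 8, 17, 18 and 10 counts in their non-intestine. On the normalized scale the medial libraries had 4.94, 1.97, 2.40 and 3.95 CPM and the lateral ones 1.41, 6.95, 3.70 and 5.36 CPM, against 0.266, 0.410, 0.587 and 0.337 CPM outside the intestine. All intestinal libraries were above all non-intestine libraries, as was found for 14.9% of the transcripts tested. The filter favours this for GNPTG, which reached 1 CPM in all 8 intestinal and in 0 non-intestine libraries. At the closest approach, the 95% Poisson interval was 0.961 to 2.01 CPM for the lateral intestine of animal 1 and 0.348 to 0.927 CPM for the non-intestine of animal 3; these intervals cover counting error only.

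The mean of GNPTG was 3.31 ± 1.38 CPM in medial intestine and 0.400 ± 0.138 CPM in non-intestine (SD, n = 4 each). The log2 fold change was 3.04 (SE 0.67, interval 1.58 to 4.49), an 8.20-fold rise, with an adjusted p of 0.00286 in edgeR's quasi-likelihood test. In lateral intestine the mean was 4.36 ± 2.37 CPM (SD, n = 4), and the log2 fold change was 3.43 (SE 0.68, interval 1.95 to 4.90), a 10.8-fold rise over non-intestine with an adjusted p of 0.00157 in the same edgeR test. The level was higher in the intestine of 4 of 4 animals in each region. GNPTG passed the filter through its intestinal libraries alone, which favours a rise and limits what these p-values and this direction show. Fitted without the filter on low counts, GNPTG stayed called in both regions. Its log2 fold change was then 2.98 in medial (adjusted p = 0.00594, edgeR) and 3.38 in lateral intestine (adjusted p = 0.00295, edgeR). With the animal as a block, the medial rise kept its size (log2 3.10) but its adjusted p in edgeR was 0.0130, above the threshold of 0.01.

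The call for GNPTG depended on single libraries. The medial adjusted p in edgeR became 0.0174, 0.0118 and 0.0128 when the non-intestine library of animal 1, 2 or 4 was left out, and the lateral one became 0.0104 without the non-intestine library of animal 1. Without animal 1, 3 or 4 the medial adjusted p was 0.0269, 0.0179 or 0.0282, and without animal 2, 3 or 4 the lateral one was 0.0127, 0.0140 or 0.0189. The log2 fold change stayed between 2.60 and 3.38 in medial and between 2.96 and 3.73 in lateral intestine over all 16 such omissions. The calls for CTSL and atp6ap2 held in each of them.

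The size of these ratios depended on the scale. Without TMM, with counts divided by library totals alone, the log2 fold changes against non-intestine were 4.33 for CTSL, 1.81 for atp6ap2 and 2.32 for GNPTG in medial intestine, and 4.42, 1.55 and 2.83 in lateral intestine, with GNPTG in medial intestine no longer called (adjusted p = 0.0164, edgeR). The median log2 fold change of all 13136 transcripts moved with them, to -0.87 for medial and -0.77 for lateral intestine, against -0.17 and -0.12 with TMM. Relative to that median, the log2 fold change of CTSL in medial intestine was 5.20 on both scales. That of atp6ap2 was 2.68 without TMM and 2.70 with it, and that of GNPTG was 3.19 and 3.20. Rescaling whole libraries moves all log2 fold changes of a contrast by almost the same amount. The near equality therefore follows from the method and is no test of the rises. The deposited TPM scale is also divided by transcript length, but a transcript's own length cancels in its ratio between tissues. On that scale the ratio of means to non-intestine was 15.3 for CTSL, 2.67 for atp6ap2 and 3.89 for GNPTG in medial intestine. In lateral intestine it was 16.7, 2.27 and 5.46.

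Levels of the 3 transcripts were set against each other in TPM only. In medial intestine the mean TPM was 7500 ± 1290 for CTSL, 166 ± 17.9 for atp6ap2 and 2.67 ± 1.17 for GNPTG (SD, n = 4 each). In lateral intestine the mean TPM was 8186 ± 1388 for CTSL, 141 ± 30.4 for atp6ap2 and 3.75 ± 2.198 for GNPTG, and in non-intestine it was 490 ± 67.3, 62.2 ± 14.6 and 0.687 ± 0.238 (SD, n = 4 each). The order CTSL, atp6ap2, GNPTG held in all 12 libraries without overlap. Libraries of 3′ ends give reads that need not scale with transcript length, so the division by length sets part of these distances.

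By mean TPM among the 13136 transcripts, CTSL was at rank 13 (medial) and 12 (lateral), against 315 outside the intestine. The rank of atp6ap2 was 457 (medial) and 523 (lateral), against 1598 outside, and that of GNPTG was 7037 and 6397, against 12638 outside. By mean CPM, which is not divided by length, atp6ap2 was lower, at 885 (medial) and 1013 (lateral), against 3340 outside. In the same unit CTSL was at 9 and 8, against 227, and GNPTG at 8201 and 7701, against 12900. In TPM, CTSL was 38.9 to 50.6 times atp6ap2 in the medial libraries and 43.5 to 89.8 times in the lateral libraries, against 5.13 to 10.5 times in the non-intestine libraries.

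The residual level outside the intestine differed between the transcripts. The mean non-intestine CPM of CTSL was 3.01% of its mean over the 8 intestinal libraries, that of GNPTG was 10.4% and that of atp6ap2 was 19.2%. For the phagocyte markers apob-1 and apob-2, apolipoprotein B genes, it was 1.94% and 1.42%. Whether intestinal RNA in the non-intestine libraries had a part in these levels was not tested.

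Medial against lateral intestine, the study's second axis, none of the 3 transcripts was called (adjusted p under 0.01 and fold change above 1.5). The log2 fold change of CTSL was -0.04 (SE 0.19, interval -0.45 to 0.37, adjusted p = 1 in edgeR's quasi-likelihood test), with medial above lateral CPM in 1 of 4 animals. For atp6ap2 it was 0.31 (SE 0.18, interval -0.08 to 0.71, adjusted p = 0.749, edgeR), with medial above lateral in 3 of 4 animals. For GNPTG it was -0.39 (SE 0.62, interval -1.73 to 0.94, adjusted p = 0.987, edgeR), with medial above lateral in 1 of 4 animals. Of the 3, 0 had an unadjusted p under 0.05 in edgeR's quasi-likelihood test, and 0 were called by DESeq2 or by edgeR's likelihood ratio test. In this contrast 0.129% of the transcripts tested were called higher and 0.160% lower in medial intestine.

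These intervals were narrowest for CTSL and atp6ap2 and widest for GNPTG. Between animals, the GNPTG ratio of medial to lateral CPM was 3.49 in animal 1, 0.283 in animal 2, 0.650 in animal 3 and 0.737 in animal 4. Animal 1 thus stood on the other side of even from the others. For CTSL the same ratio was 0.923, 0.883, 1.14 and 0.961 in animals 1 to 4, and for atp6ap2 it was 1.72, 1.15, 0.977 and 1.32.

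Other lysosomal transcripts were read beside the 3 from a list of 88, of which 87 were tested, sorted by role. Of the other transcripts, 27 came from a table of matches that is not tied to these libraries, which was held only in part. A further 58 came from tables of transcripts selected as intestine-enriched in these same libraries, so their direction is no independent evidence. A place among the 27 does not mean that the study left a transcript out of its selection, which was not checked. Of the 27, 26 were tested, and each of these reached the minimum of 1 CPM in all 4 non-intestine libraries. In medial intestine 22 of the 26 were called higher than in non-intestine, 1 was called lower and 3 were not called, with a median log2 fold change of 2.23, against -0.17 for all transcripts tested. In lateral intestine the counts were again 22, 1 and 3, with a median of 2.13, against -0.12 for all transcripts. Of all transcripts, 12.8% were called higher in medial and 11.7% in lateral intestine. Lower levels were called for 11.5% of all transcripts in medial and for 8.75% in lateral intestine. Of the 58 enriched transcripts, 56 were called higher in medial and 51 in lateral intestine. Without TMM, 19 of the 26 were called higher and 2 lower in medial intestine, and 18 higher and 2 lower in lateral intestine. Of all 13136 transcripts, 954 were then called higher and 2854 lower in medial intestine, and 930 higher and 2207 lower in lateral intestine.

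Among the cysteine cathepsins, 5 of the 6 other matches were called higher in both regions, beside 12.8% of all transcripts in medial and 11.7% in lateral intestine. CTSB, CTSF, CTSS and dd_267, 4 of these 5, had been selected as intestine-enriched in these libraries, as had CTSL. Of the 2 other matches, which came from the table not tied to these libraries, 1 was called. By size, CTSL had a log2 fold change below that of 1 of the 6 other matches. With library totals alone 5 were called higher in medial and 4 in lateral intestine, beside 954 and 930 of all 13136 transcripts. The higher value was that of dd_267, a CTSV match known in planarians as ctsla and itself a phagocyte marker, with log2 fold changes of 5.78 in medial and 5.70 in lateral intestine. CTSS (dd_13139) had log2 fold changes of 4.26 in medial and 4.36 in lateral intestine. CTSC (dd_219), the dipeptidyl peptidase that activates serine proteases in mammals, had 3.22 and 3.21, and CTSB (dd_81), a protease with exopeptidase activity, had 3.14 and 2.99.

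The sixth match was not higher in the intestine. CTSV (dd_175) had a log2 fold change of -0.58 in medial intestine (adjusted p = 0.0549, edgeR's quasi-likelihood test) and of -0.60 in lateral intestine (adjusted p = 0.0547, edgeR), neither of them called. With library totals alone it was called lower in both, at -1.31 in medial and -1.27 in lateral intestine. In deposited TPM the level of dd_175 was 487 ± 113 in the medial and 510 ± 105 in the lateral libraries, against 1579 ± 183 outside the intestine (SD, n = 4 each). In the same unit CTSL (dd_48) was above dd_175 in all 8 intestinal libraries and below it in all 4 non-intestine libraries.

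Reads of similar cathepsin transcripts may be divided between them by alignment, which was not tested here. With the counts of dd_48, dd_267 and dd_175 summed as 1 transcript, an alternative chosen after seeing the data, the log2 fold change was 3.24 in medial and 3.26 in lateral intestine, and both stayed called. The value for dd_48 alone was 5.03 in medial and 5.07 in lateral intestine. The sum was therefore still higher in the intestine, by a smaller ratio than CTSL by itself.

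**Figure D2:**
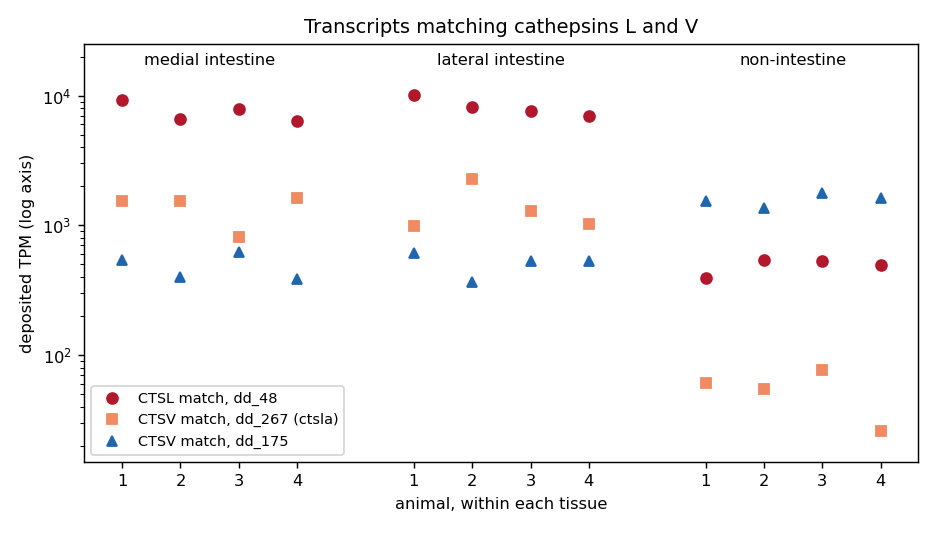
Deposited TPM (log axis) of the CTSL match dd_48 and the CTSV matches dd_267 and dd_175 in each library, with tissues from left to right and animals 1 to 4 within each. In all 8 intestinal libraries dd_48 lies above dd_175, and in all 4 non-intestine libraries dd_175 lies above dd_48.

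CTSF (dd_456) was the 1 cathepsin called between the intestinal regions. Its level was 1388, 1088, 1793 and 1015 CPM in the medial intestine of animals 1 to 4, against 623, 400, 613 and 472 CPM in their lateral intestine, with no overlap. The log2 fold change of CTSF in medial against lateral intestine was 1.33, with an adjusted p of 0.00690 in edgeR's quasi-likelihood test. That p was 0.0112 when only the 2 intestinal tissues were fitted, and it lay between 0.00679 and 0.0799 over the 16 omissions of a library or an animal. The call held only without the medial library of animal 2 (0.00819) or 4 (0.00679) or the non-intestine library of animal 4 (0.00987). The p was highest without animal 1 (0.0799). Whether CTSF and CTSL differ in their mediolateral ratio was not tested.

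The V-ATPase transcripts were higher in the intestine as well. All 16 other subunits and accessory proteins tested were called higher in both regions, beside 12.8% of all transcripts in medial and 11.7% in lateral intestine. Of the 16, 8 came from tables of transcripts selected as intestine-enriched in these libraries. The other 8 came from the table not tied to these libraries, and whether the study also selected them was not checked. The 16 had log2 fold changes between 1.34 and 2.81 in medial intestine (median 2.07) and between 1.32 and 2.57 in lateral intestine (median 1.91). The log2 fold change of atp6ap2 (2.53 in medial and 2.22 in lateral intestine) was exceeded by 2 of the 16 in medial and by 3 in lateral intestine. The membrane subunit ATP6V0A1 (dd_833) was the highest, at 2.81 and 2.57, and ATP6AP1 (dd_1840), the other accessory protein, had 2.46 and 2.36. ATP6V1A (dd_959), the catalytic subunit, had 2.10 and 2.03, and ATP6V1B2 (dd_684), its partner in the ATP-hydrolysing ring, had 1.55 and 1.38. The lowest was ATP6V1G2 (dd_1836), a subunit of the peripheral stalk, at 1.34 and 1.32.

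The place of atp6ap2 in this group depended on the scale. In deposited TPM, its mean of 166 TPM in medial intestine was below that of 8 of the 16 others, whose means had a median of 157 TPM, and its mean of 141 TPM in lateral intestine was likewise below 8 of them (median 152 TPM). In non-intestine its mean of 62.2 TPM was below 12 of the 16 (median 98.4 TPM). In CPM, which is not divided by length, the ratio of atp6ap2 to the median of the 16 was 0.326 to 0.557 over the 8 intestinal libraries, against 0.254 to 0.372 over the 4 non-intestine libraries. Between medial and lateral intestine, 0 of the 16 passed in edgeR's quasi-likelihood fit, 0 had an unadjusted p under 0.05 and 0 were called by DESeq2 or the likelihood ratio test. Their log2 fold changes in that contrast lay between 0.01 and 0.31, all at or under the 0.31 of atp6ap2, and with library totals alone 15 of the 16 were positive. Without TMM, 13 of the 16 were called higher in medial and 11 in lateral intestine, all 16 with positive log2 fold changes. Of all 13136 transcripts, 954 and 930 were then called higher.

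**Figure D3:**
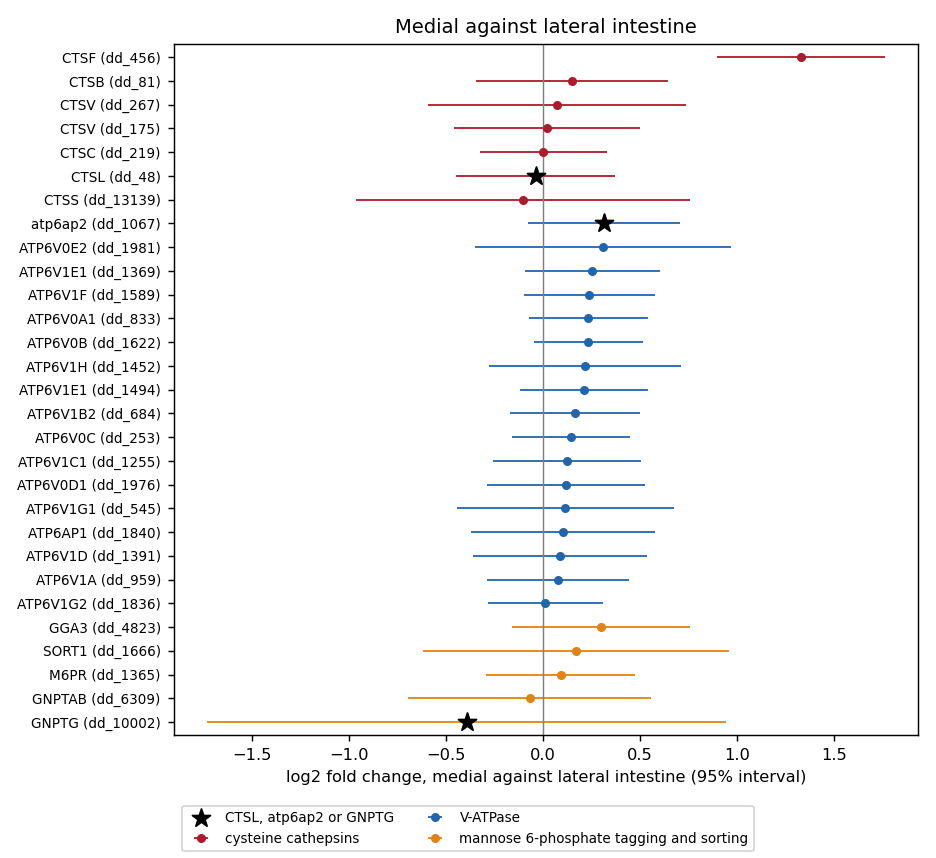
Log2 fold change of medial against lateral intestine with its approximate 95% interval (edgeR quasi-likelihood fit) for the cysteine cathepsin, V-ATPase and mannose 6-phosphate transcripts; stars mark CTSL, atp6ap2 and GNPTG. The intervals of the starred transcripts include 0, the widest being that of GNPTG (-1.73 to 0.94), and CTSF lies to the right at 1.33.

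Of the other transcripts for mannose 6-phosphate tagging and sorting, 3 of 4 were called higher in medial and 2 of 4 in lateral intestine, beside 12.8% and 11.7% of all transcripts. GNPTAB and GGA3 had been selected as intestine-enriched in these libraries. Of the 2 that came from the table not tied to these libraries, M6PR and SORT1, 1 was called in each region. GNPTAB (dd_6309), which encodes the catalytic subunits of the phosphotransferase to which GNPTG belongs, had log2 fold changes of 1.99 in medial and 2.06 in lateral intestine. M6PR (dd_1365), a receptor that carries tagged hydrolases from the Golgi, had 1.94 and 1.85. GGA3 (dd_4823), an adaptor for such receptors, had 1.06 in medial intestine, where it was called, and 0.76 in lateral intestine, where it was not (adjusted p = 0.0141, edgeR's quasi-likelihood test). With library totals alone GGA3 had 0.33 and 0.09 and was called in neither, and DESeq2 did not call it in medial intestine.

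SORT1 (dd_1666), a sorting receptor that acts without the tag, was called in neither region, with log2 fold changes of 0.49 in medial and 0.33 in lateral intestine. With library totals alone these were -0.18 and -0.31. For GNPTG the values were 3.04 in medial and 3.43 in lateral intestine, with the widest interval of the 5 against non-intestine. They are not ranked against the others, since GNPTG reached 1 CPM in 0 of 4 non-intestine libraries and the others in 4 of 4. Whether it differs from GNPTAB was not tested.

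GNPTAB was read beside GNPTG in TPM, as subunits of 1 enzyme. In medial intestine the mean was 3.25 ± 1.17 TPM for GNPTAB and 2.67 ± 1.17 TPM for GNPTG (SD, n = 4 each). In lateral intestine it was 3.58 ± 0.364 TPM for GNPTAB and 3.75 ± 2.198 TPM for GNPTG, and in non-intestine 1.75 ± 0.463 TPM and 0.687 ± 0.238 TPM (SD, n = 4 each). M6PR was far more abundant, at 168 ± 23.9 TPM in medial intestine and 168 ± 27.3 TPM in lateral intestine, against 94.3 ± 12.1 TPM in non-intestine (SD, n = 4 each). The 2 subunits overlapped in the intestine only after division by length. In CPM, GNPTAB had 9.66 to 21.3 and GNPTG 1.41 to 6.95 over the 8 intestinal libraries, against 2.53 to 4.73 and 0.266 to 0.587 over the 4 non-intestine libraries.

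The remaining roles held larger and smaller changes. Among other lumenal hydrolases and activators, calls of a higher level were made for 38 of 39 in medial and 35 of 39 in lateral intestine (28 and 30 without TMM), beside 12.8% and 11.7% of all transcripts. Of the 39, 31 came from tables of transcripts selected as intestine-enriched in these libraries. The other 8, from the table not tied to these libraries, were called higher in both regions. Among membrane proteins they were made for 16 of 19 tested in medial and 15 of 19 in lateral intestine (13 and 11 without TMM). Of these 19, 13 came from the tables of selected transcripts. Of the 6 from the table not tied to these libraries, 4 were called higher and 1 lower in each region. Without TMM, 954 of all 13136 transcripts were called higher in medial and 930 in lateral intestine. The highest means of both log2 fold changes belonged to PLA2G15 (dd_7286), a phospholipase, with 6.73 in medial and 6.99 in lateral intestine, and to PSAP (dd_215), the precursor of the saposins, with 6.51 and 6.61. CTSL lay below both. Both had been selected as intestine-enriched, and dd_7286, with 16 counts over the 4 non-intestine libraries, passed the filter only through the intestinal ones, so its value is imprecise and its rank carries no weight. The lowest belonged to CD63 (dd_2452), a tetraspanin, and to ABCA2 (dd_2300), a lipid transporter. The CD63 match dd_2452 was called lower in both regions (-2.17 in medial and -1.63 in lateral intestine), and ABCA2 had 0.07 and -0.03 and no call. Another CD63 match, dd_440, selected as intestine-enriched, was called higher in both regions (2.48 in medial and 2.40 in lateral intestine). Between medial and lateral intestine, GM2A (dd_214_1_1) and NPC2 (dd_4411) were called higher in medial intestine, at log2 2.17 and 2.09. GM2A is an activator of ganglioside breakdown and NPC2 a cholesterol carrier, and both were named after their values were seen. The other NPC2 matches, dd_73, dd_602 and dd_704, were not called in this contrast, at 1.06, 0.22 and -0.66. GM2A was not called without animal 1, 2 or 3 (adjusted p = 0.0359, 0.0124 or 0.0133, edgeR's quasi-likelihood test) or without the lateral library of animal 1 (0.0105). The NPC2 match dd_4411 was called in all 16 omissions.

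**Figure D4:**
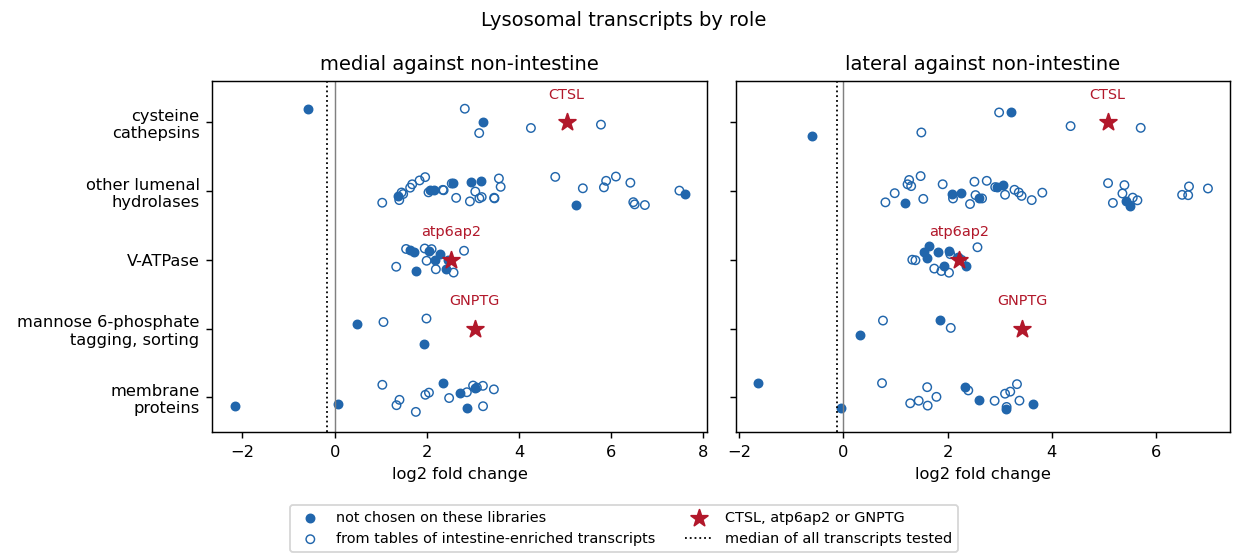
Log2 fold change of the lysosomal transcripts tested, by role, in medial intestine (left) and lateral intestine (right) against non-intestine. Filled points come from a table of matches not tied to these libraries, and open points from tables of intestine-enriched transcripts. Stars are CTSL, atp6ap2 and GNPTG, and vertical scatter within a role is for legibility. The dotted line is the median of all 13136 transcripts (-0.17 and -0.12). Most points lie to the right of that line, with the other V-ATPase transcripts between 1.32 and 2.81.

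For each of the 3, the transcripts with the most similar pattern were found by Pearson's r of log2(CPM + 1) over the 12 libraries, as a description in which the libraries of 3 tissues supply most of the variation. The closest to CTSL were the phagocyte marker apob-2 (dd_194, r = 0.998), an HPGDS match (dd_20, r = 0.997) and a PRKAR2B match (dd_1362, r = 0.997). HPGDS is prostaglandin D synthase and PRKAR2B a regulatory subunit of protein kinase A in mammals. The closest to atp6ap2 were matches to RDH13, a retinol dehydrogenase (dd_2096, r = 0.993), SOAT1, which esterifies cholesterol (dd_2567, r = 0.991), and ATP6V0B, a V-ATPase subunit (dd_1622, r = 0.990). The closest to GNPTG were matches to SLC31A1, a copper transporter (dd_5954, r = 0.966), ACSBG2, an acyl-CoA synthetase (dd_2414, r = 0.962), and DHRS7B, a dehydrogenase or reductase (dd_3512, r = 0.957). The values for GNPTG were the lowest of the 3 sets.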

How the data were processed

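Reads of 12 libraries (3′ mRNA) were trimmed by the authors with BBDuk, aligned with Bowtie2 2.3.1 to 28069 dd_Smed_v6 transcripts and counted with Samtools 1.3. The authors deposited raw read counts per transcript, used here for every test, and transcript lengths, kept as other annotation. They also deposited CPM, a signal on TMM-adjusted library sizes that recomputation matched, RPKM, which was not tested, and TPM, used for levels between genes. Deposited columns of the authors' own comparisons (log2 fold change, log2 CPM, likelihood ratio score, p-value and FDR) were not used.

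Counts were fitted with edgeR 4.0.16 in R 4.3.3 (quasi-likelihood, TMM, tissue term only, all 12 libraries, Benjamini-Hochberg over 13136 transcripts). Standard errors are the log2 fold change over the square root of F and are approximate. DESeq2 1.42.0, likelihood ratio tests, other scalings, no filter, 2-tissue fits, a replicate block and omissions were alternatives. Same-numbered libraries come from 1 animal, per the labels and methods. Their deviations from tissue means correlated between -0.00271 and 0.247 across transcripts. The 3 transcripts and all lists were chosen with earlier results of these data known. Names could be drawn from all cathepsin, V-ATPase and mannose 6-phosphate matches. They could also come from the 2 highest and 2 lowest of the other roles, and the 3 most similar transcripts. Of the V-ATPase matches, only some are named in the text.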

Additional observations from a re-analysis of the deposited data

Results flagged for a closer look

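The CTSL level of 291 CPM in the non-intestine library of animal 1 lay far below those of the other 3 animals (450, 423 and 431 CPM), relative to the range of the group. Such a gap arises by chance in about 1 of 20 groups, and 9 groups of 4 libraries were examined. The library's phagocyte markers apob-1 and apob-2 summed to 83.9 CPM, the lowest of the 4 non-intestine libraries, against 102, 101 and 88.8 CPM in animals 2, 3 and 4. Their part in the low value was not tested.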

How the results depend on the processing

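The rises of CTSL and atp6ap2 over non-intestine kept their direction and call in every alternative run. GNPTG in medial intestine was not called with library totals only (log2 2.32) or with the replicate block (log2 3.10). The replicate block changed no other call of the 3 transcripts. Omitting a library or an animal gave log2 fold changes in medial intestine of 4.75 to 5.11 for CTSL, 2.38 to 2.58 for atp6ap2 and 2.60 to 3.38 for GNPTG, and in lateral intestine of 4.80 to 5.14, 2.05 to 2.35 and 2.96 to 3.73. In medial against lateral intestine it gave -0.12 to 0.08 for CTSL, 0.17 to 0.46 for atp6ap2 and -0.94 to 0.11 for GNPTG. There the sign of CTSL turned to 0.04 or 0.03 without the medial library of animal 2 or 4 and to 0.080 without the lateral library of animal 1, and that of GNPTG turned to 0.11 without animal 2, none of them called. Over the omissions the count of all transcripts called was 2001 to 3344 in medial intestine, 1635 to 2982 in lateral intestine and 12 to 34 between them. The first and second counts fell by over 1.5 times without animal 1 (2001 and 1669) or animal 3 (2025 and 1635), with fewer libraries fitted. The likelihood ratio test called 175 and DESeq2 173 between the intestinal regions, against 38 in edgeR's quasi-likelihood test; the cause was not tested. With all libraries, 26 lysosomal transcripts from the table not tied to these libraries were tested, and 22 were called higher and 1 lower in each region. Counted in both directions, 23 were called in medial intestine in each omission and 22 to 23 in lateral intestine, and 0 to 1 between the regions. The share of calls that were higher was 52.6% in medial and 57.3% in lateral intestine, and 25.1% and 29.65% with library totals only; with DESeq2 it was 41.7% and 46.4%. Counting depth limits GNPTG, with 8 to 18 counts in each non-intestine library.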
